A study of Mus musculus with 12 samples.

Results

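The genes described here are 5 subunits of the transcription factor NF-κB (*Nfkb1*, *Nfkb2*, *Rel*, *Rela* and *Relb*), 3 inhibitors that NF-κB itself induces (*Nfkbia*, *Nfkbie* and *Tnfaip3*) and 2 adaptors of TNF receptors that are also NF-κB targets (*Traf1* and *Birc3*). They were taken by name from the expression table, which held all 10 among its 11264 genes (11255 of them were tested). The table came from RNA sequencing of conventional type 1 dendritic cells (cDC1s) that had been sorted from B16F10 melanomas, a tumor line grown under the skin of mice, at day 13. WT mice and Clec9agfp/gfp mice, which carry a GFP cassette in *Clec9a* and lack the dead-cell receptor DNGR-1, had received an empty plasmid (control) or a plasmid encoding the dendritic cell growth factor Flt3L (FL) by hydrodynamic injection into the blood, and tumor cells 1 day later. This gave 4 groups of 3 libraries: WT control, Clec9agfp/gfp control, WT FL and Clec9agfp/gfp FL. Every library pooled the cells of 2 to 3 mice, so the tests measure the spread between pools. The study describes 3 independent experiments, and the labels do not say which experiment a library came from. All mice were 7 to 10 weeks old, and the Clec9agfp/gfp line lacks DNGR-1 in every cell and not only in cDC1s. The sort kept CD45+MHCII+CD24+CD103+ cells without Ly6C, F4/80 or CD11b.

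NF-κB proteins are dimers of Rel family subunits that inhibitors of the IκB family hold in the cytoplasm. In the canonical pathway, ligands such as TNF or microbial products activate the IKK complex, which marks IκB proteins for degradation and frees dimers that contain RelA or c-Rel, whereas in the noncanonical pathway the kinase NIK drives processing of the *Nfkb2* product and frees RelB. Several subunits and inhibitors are themselves targets, which closes feedback loops, and in dendritic cells NF-κB dimers act in maturation, costimulation and production of IL-12.

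*Clec9a* was read first, as a check of the labels. It averaged 336 ± 43.5 TMM-scaled counts per M (CPM, SD, n = 3) in WT control and 348 ± 34.5 in WT FL, against 4.25 ± 5.80 in Clec9agfp/gfp control and 0.807 ± 0.547 in Clec9agfp/gfp FL libraries. The cDC1 markers *Xcr1* (1211 to 1972 CPM over the 12 libraries) and *Irf8* (2588 to 3474) were high throughout. Other cDC1 markers were less even, among them *Batf3* (34.1 to 127 CPM), *Itgae* (425 to 1256) and *Wdfy4* (360 to 1339). Of 10 cDC1 markers, FL over both genotypes raised 1 and lowered 1, where 9.6% of all genes rose and 7.85% fell. Library sizes were 14.4 to 25.9 M counts except in Clec9agfp/gfp control 3, with 3.06 M. The lowest count of any of the 10 NF-κB genes in any library was 238. The first principal component held 32.9% of the variance and placed WT control 1 (−50) and 3 (−54.9) at one end and Clec9agfp/gfp FL 3 (46.3) at the other, with the remaining 9 libraries at −11.9 to 27.3, and the main results are also given without these libraries.

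As several of these genes are known targets of NF-κB, their promoters were searched for the κB consensus, the DNA motif that NF-κB dimers bind, on both strands. RefSeq windows of 300 bases (GRCm38.p6), from 250 bases before to 50 bases after a transcription start, were found for 8 of the 10 genes, without *Nfkb1* and *Relb*. A match was present in a window of 5 of these 8 (*Nfkb2*, *Rel*, *Nfkbia*, *Nfkbie* and *Tnfaip3*), while *Rela*, *Traf1* and *Birc3* had none in theirs. For comparison, 8.46% of all 32851 windows and 11.96% of the 8434 tested genes with a window held a match. Below are the windows of *Rel*, *Nfkb2* (the first of its 3) and *Nfkbie*, whose RNA rose with FL, and of *Nfkbia*, whose RNA did not pass the test in any comparison. The letters run 5′ to 3′ on the strand of the gene and capitals mark the κB matches.
*Rel*, chr11:23770920-23771219, minus strand: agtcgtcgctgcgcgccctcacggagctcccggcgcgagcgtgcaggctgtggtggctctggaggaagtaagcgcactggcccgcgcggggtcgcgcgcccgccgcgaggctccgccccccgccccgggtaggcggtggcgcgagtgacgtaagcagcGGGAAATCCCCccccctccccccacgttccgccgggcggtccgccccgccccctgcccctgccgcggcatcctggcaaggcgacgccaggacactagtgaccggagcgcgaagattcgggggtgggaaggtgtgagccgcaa
*Nfkb2*, chr19:46304487-46304786, plus strand: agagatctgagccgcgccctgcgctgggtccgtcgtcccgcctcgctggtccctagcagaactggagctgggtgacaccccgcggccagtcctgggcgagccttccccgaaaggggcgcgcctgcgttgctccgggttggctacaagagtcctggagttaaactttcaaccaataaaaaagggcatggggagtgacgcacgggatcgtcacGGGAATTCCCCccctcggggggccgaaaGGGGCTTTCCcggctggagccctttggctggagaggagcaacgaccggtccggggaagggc
*Nfkbie*, chr17:45555450-45555749, plus strand: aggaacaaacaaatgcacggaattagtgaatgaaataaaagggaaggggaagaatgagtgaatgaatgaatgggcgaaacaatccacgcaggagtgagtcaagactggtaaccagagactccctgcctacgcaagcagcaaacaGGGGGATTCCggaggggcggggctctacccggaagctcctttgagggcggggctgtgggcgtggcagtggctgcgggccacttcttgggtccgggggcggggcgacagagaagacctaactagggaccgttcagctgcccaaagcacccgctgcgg
*Nfkbia*, chr12:55492598-55492897, minus strand: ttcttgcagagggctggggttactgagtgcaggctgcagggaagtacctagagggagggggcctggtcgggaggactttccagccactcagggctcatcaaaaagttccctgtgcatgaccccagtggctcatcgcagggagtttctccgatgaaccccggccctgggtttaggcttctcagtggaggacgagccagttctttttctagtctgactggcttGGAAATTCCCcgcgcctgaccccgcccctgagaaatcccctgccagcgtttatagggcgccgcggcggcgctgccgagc
In *Rel* the capitals cover 2 matches that overlap on opposite strands, the first at position −92 from the start site (negative positions lie before it). *Nfkb2* had such an overlapping pair at −39 and a further match at −11. The single match lay at −106 in *Nfkbie* and at −29 in *Nfkbia*. The first window of *Tnfaip3* held GGGACACCCC at −125 and GGAAATCCCC at −12. A match describes the letters of the window and not binding, which was not measured.

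*Rel* encodes c-Rel, the subunit needed for *Il12b* transcription in macrophages, and was higher with FL in both genotypes. *Rel* (ENSMUSG00000020275) lies on chromosome 11 (23736847 to 23770970, minus strand, GRCm38). Its levels were 77.1, 89.9 and 52.9 CPM in WT control libraries 1, 2 and 3, and 144, 239 and 162 in WT FL. In Clec9agfp/gfp libraries they were 99.99, 130 and 117 with control and 214, 169 and 442 with FL. Every FL library therefore lay above every control library of its own genotype, and the 3 Clec9agfp/gfp control libraries lay above the 3 WT control libraries. FL raised *Rel* by 1.30 on the log2 scale in WT cDC1s (SE 0.31, adjusted p = 0.0479 from limma) and by 1.12 in Clec9agfp/gfp cDC1s (SE 0.31, adjusted p = 0.0597). Leaving out WT control 3, WT FL 2 or WT FL 3 ended the call in WT cDC1s, with limma's adjusted p of 0.250, 0.202 and 0.118. In Clec9agfp/gfp cDC1s the call ended without control 1 (adjusted p = 0.124 from limma), control 2 (0.125), control 3 (0.157), FL 1 (0.118) or FL 3 (0.313), and without FL 3 the log2 fold change fell to 0.72. As these are sorted cells in bulk, a larger share of *Rel*-rich cells and more *Rel* RNA per cell cannot be told apart, here and for the genes that follow.

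**Figure D1:**
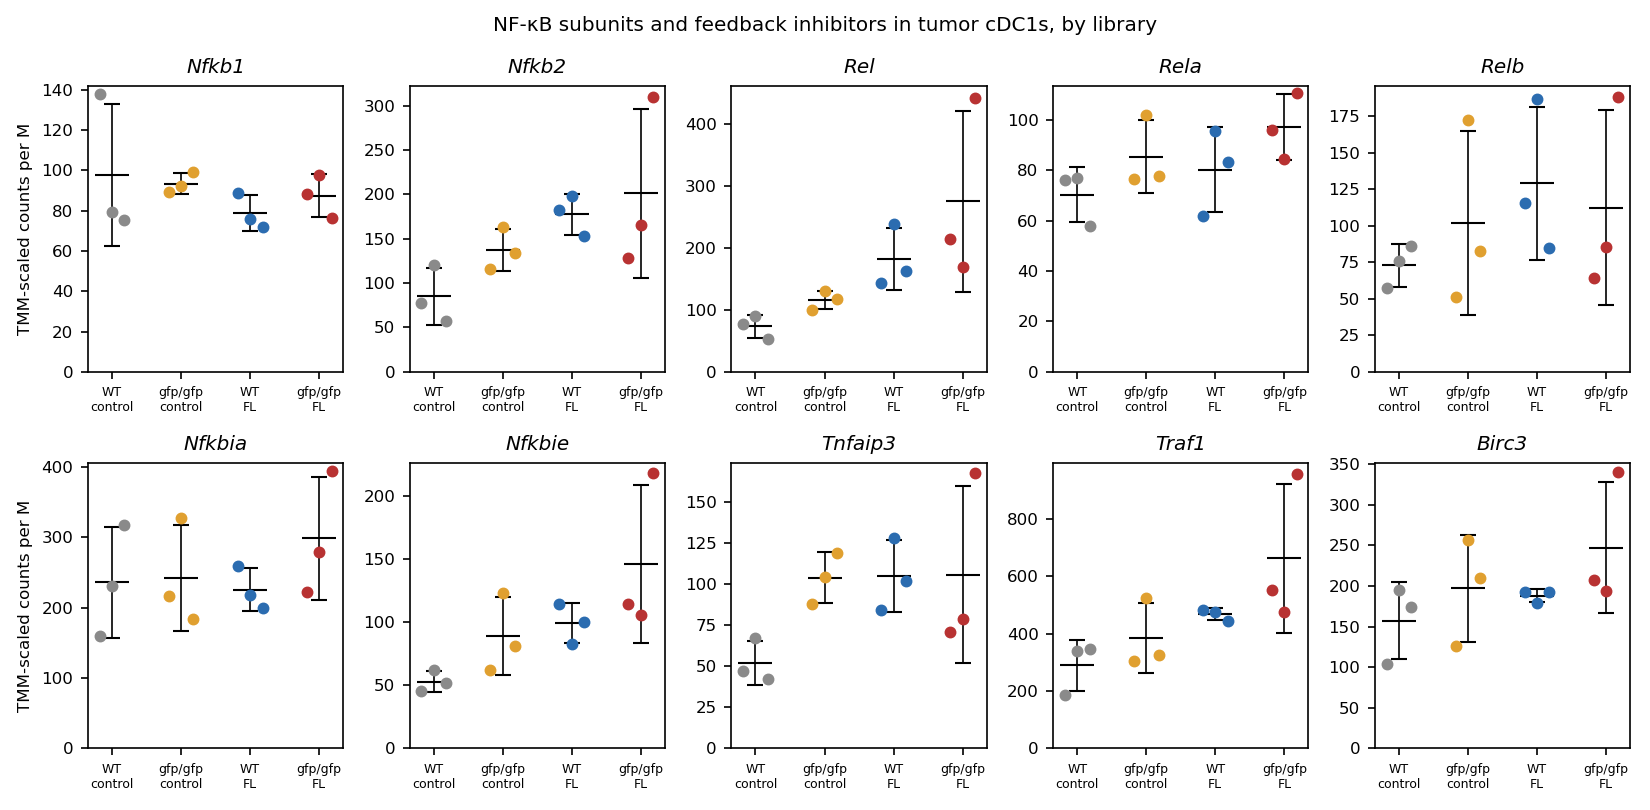
Levels of the 10 genes in TMM-scaled counts per M, by group. Each point is 1 library in the order of its replicate number, and the bars show the group mean and SD (n = 3). *Rel* ran from 52.9 to 89.9 CPM in WT control and from 169 to 442 in Clec9agfp/gfp FL, whereas *Nfkb1* overlapped in all groups.

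*Nfkb2* encodes p100, the precursor of p52 and a brake on noncanonical signaling, and rose with FL in WT cDC1s. *Nfkb2* (ENSMUSG00000025225) lies on chromosome 19 (46304320 to 46312385, plus strand). The levels were 77.5, 120 and 57.3 CPM in WT control and 182, 198 and 153 in WT FL, with no overlap. With 116, 163 and 134 CPM in Clec9agfp/gfp control and 129, 165 and 309 in Clec9agfp/gfp FL, the groups overlapped in that genotype, where FL 3 alone stood far above the controls. The log2 fold change was 1.11 in WT (SE 0.30, adjusted p = 0.0640 from limma) and 0.46 in Clec9agfp/gfp cDC1s (SE 0.30, adjusted p = 0.497). The difference between those changes was −0.66 (95% CI −1.55 to 0.24, adjusted p = 0.600 from limma), so an effect of genotype on the response was not shown. In WT cDC1s the call ended without WT control 1 (adjusted p = 0.124 from limma), WT control 3 (0.298), WT FL 1 (0.107), WT FL 2 (0.211) or WT FL 3 (0.150).

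*Relb*, the partner of p52 in noncanonical dimers, varied widely within groups. *Relb* (ENSMUSG00000002983) lies on chromosome 7 (19606217 to 19629438, minus strand). Its levels were 57.1, 75.8 and 86.1 CPM in WT control, 116, 187 and 84.8 in WT FL, 50.9, 173 and 82.4 in Clec9agfp/gfp control, and 63.9, 85.4 and 188 in Clec9agfp/gfp FL. One library of each of the latter 3 groups reached 173 to 188 CPM and each of these groups also held a library within the range of WT control. The coefficient of variation within a group was 61.9% in Clec9agfp/gfp control and 59.1% in Clec9agfp/gfp FL. FL changed *Relb* by 0.76 in WT (95% CI −0.13 to 1.64, adjusted p = 0.292 from limma) and by 0.17 in Clec9agfp/gfp cDC1s (−0.72 to 1.05, adjusted p = 0.899), and neither passed the test.

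The canonical subunits *Rela* and *Nfkb1*, which encode RelA (p65) and the p50 precursor p105, passed the test in no comparison. *Rela* (ENSMUSG00000024927), on chromosome 19 (5637483 to 5648130, plus strand), measured 76.1, 77.2 and 57.8 CPM in WT control and 62.0, 95.7 and 83.3 in WT FL. In Clec9agfp/gfp libraries it measured 76.5, 102 and 77.8 with control and 95.9, 84.7 and 111 with FL. Only Clec9agfp/gfp FL and WT control libraries did not overlap, and the log2 fold change between them was 0.46 (SE 0.22, adjusted p = 0.156 from limma). *Nfkb1* (ENSMUSG00000028163), on chromosome 3 (135584655 to 135691547, minus strand), measured 138, 79.5 and 75.3 CPM in WT control, 88.7, 75.7 and 71.7 in WT FL, 89.2, 92.0 and 99.1 in Clec9agfp/gfp control, and 88.4, 97.7 and 76.3 in Clec9agfp/gfp FL. Its highest library was WT control 1, the library in which *Nfkbia*, *Nfkbie*, *Traf1* and *Birc3* were at their lowest. The FL effect on *Nfkb1* over both genotypes was −0.18 (95% CI −0.51 to 0.16, adjusted p = 0.499 from limma).

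Among the inhibitors, *Nfkbie* encodes IκBε, an IκB protein that preferentially holds c-Rel and RelA dimers, and it rose with FL in WT cDC1s. *Nfkbie* (ENSMUSG00000023947) lies on chromosome 17 (45555703 to 45563169, plus strand). Levels of 45.4, 61.9 and 51.4 CPM in WT control and 114, 82.6 and 100.1 in WT FL did not overlap. In Clec9agfp/gfp libraries they were 62.4, 123 and 81.1 with control and 114, 105 and 218 with FL, and overlapped because of control 2. All 3 Clec9agfp/gfp control libraries lay above the WT control libraries, the nearest by a narrow margin. The log2 fold change with FL was 0.89 in WT (SE 0.28, adjusted p = 0.0971 from limma), just inside the threshold of 0.1, and 0.69 in Clec9agfp/gfp cDC1s (SE 0.28, adjusted p = 0.231). The call in WT cDC1s was made in 9 of 24 other settings of the analysis. It ended without WT control 1 (adjusted p = 0.194 from limma), WT control 3 (0.315), WT FL 1 (0.181), WT FL 2 (0.208) or WT FL 3 (0.219), and also without Clec9agfp/gfp control 3 (0.118), Clec9agfp/gfp FL 1 (0.123) or Clec9agfp/gfp FL 2 (0.112), libraries that enter it through the shared estimate of the spread.

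*Tnfaip3* encodes A20, a ubiquitin-editing enzyme that ends signaling from TNF and Toll-like receptors, and was lowest in WT control libraries. *Tnfaip3* (ENSMUSG00000019850) lies on chromosome 10 (19000910 to 19015657, minus strand). Levels were 47.3, 67.3 and 42.1 CPM in WT control against 84.3, 128 and 102 in WT FL, 88.4, 105 and 119 in Clec9agfp/gfp control, and 71.1, 78.7 and 168 in Clec9agfp/gfp FL. No library of the latter 3 groups was as low as any WT control library. The group means were 52.2 CPM in WT control, 104 in Clec9agfp/gfp control, 105 in WT FL and 106 in Clec9agfp/gfp FL. The last of these rested on Clec9agfp/gfp FL 3, and without it the mean was 74.9 and the log2 fold change with FL in Clec9agfp/gfp cDC1s was −0.46 in place of −0.08. FL raised *Tnfaip3* by 1.00 in WT cDC1s (SE 0.29, adjusted p = 0.0799 from limma), while in Clec9agfp/gfp cDC1s the change was −0.08 (95% CI −0.69 to 0.54, adjusted p = 0.936). Clec9agfp/gfp control exceeded WT control by 1.00 as well, with an adjusted p of 0.188 from limma (unadjusted p = 0.00325), which missed the threshold. The interaction of genotype and FL was −1.08 (SE 0.41, unadjusted p = 0.0182, adjusted p = 0.479 from limma), the only unadjusted p under 0.05 for the interaction among the 10 genes. The adjusted p of that interaction stayed between 0.155 and 0.799 over the 23 other settings tried, and at an unadjusted p under 0.05 the interaction held 1027 of the 11255 tested genes (9.12%). The FL call in WT cDC1s ended without WT control 1 (adjusted p = 0.152 from limma), WT control 3 (0.318), WT FL 2 (0.247) or WT FL 3 (0.180), and also with sample weights (0.104) or only the groups compared (0.125).

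*Nfkbia*, which encodes IκBα, the inhibitor degraded and resynthesized first after stimulation, passed the test in no comparison. *Nfkbia* (ENSMUSG00000021025) lies on chromosome 12 (55489410 to 55492647, minus strand). Levels were 160, 231 and 317 CPM in WT control, 259, 218 and 199 in WT FL, 216, 327 and 184 in Clec9agfp/gfp control, and 222, 279 and 394 in Clec9agfp/gfp FL. All groups overlapped. The FL effect was −0.02 in WT (95% CI −0.60 to 0.56, adjusted p = 0.974 from limma; 0.11 when libraries were scaled by column totals) and 0.30 in Clec9agfp/gfp cDC1s (−0.27 to 0.88, adjusted p = 0.654).

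Of the adaptors, *Traf1*, a TNF receptor-associated factor that NF-κB strongly induces and that binds cIAP proteins, rose with FL over both genotypes. *Traf1* (ENSMUSG00000026875) lies on chromosome 2 (34941750 to 34961772, minus strand). Levels were 187, 338 and 345 CPM in WT control and 482, 477 and 442 in WT FL, without overlap. In Clec9agfp/gfp libraries they were 306, 525 and 325 with control and 553, 476 and 958 with FL, where control 2 exceeded FL 2. The log2 fold change with FL was similar in size in WT (0.74, SE 0.28, adjusted p = 0.152 from limma) and Clec9agfp/gfp cDC1s (0.76, SE 0.28, adjusted p = 0.178). Neither was called alone, and without WT control 2 the WT comparison was called (0.87, adjusted p = 0.0698 from limma), as it was with scaling by column totals (0.86, adjusted p = 0.0628). Over both genotypes FL raised *Traf1* by 0.75 (SE 0.20, adjusted p = 0.0292 from limma).

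*Birc3*, which encodes cIAP2, a ubiquitin ligase of the TNF receptor complex, was called in no comparison. *Birc3* (ENSMUSG00000032000) lies on chromosome 9 (7848699 to 7873186, minus strand) and measured 104, 195 and 174 CPM in WT control, 193, 179 and 193 in WT FL, 126, 257 and 209 in Clec9agfp/gfp control, and 208, 194 and 340 in Clec9agfp/gfp FL. Clec9agfp/gfp FL libraries lay just above WT FL libraries without overlap, with a difference of 0.35 on the log2 scale (SE 0.28, adjusted p = 0.9999 from limma), and 4.53% of all genes were higher without overlap in that comparison. The largest difference, Clec9agfp/gfp FL against WT control, was 0.65 (SE 0.28, adjusted p = 0.131 from limma), and it was called without WT control 2 (0.83, adjusted p = 0.0559) and without Clec9agfp/gfp control 1 (adjusted p = 0.0917), and with scaling by column totals (0.74, adjusted p = 0.0662).

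Counted over the 10 genes, FL in WT cDC1s raised *Rel*, *Nfkb2*, *Tnfaip3* and *Nfkbie* and lowered none. These 4 of 10 were called higher at an adjusted p under 0.1 from limma, where 5.37% of all 11255 tested genes were called higher and 6.56% in either direction. The median log2 fold change of the 10 was 0.75, against −0.01 over all genes. Libraries did not overlap for 5 of the 10, all higher, against 12.1% of all genes. The count was 1 without WT control 1, 2 without WT FL 1, and 0 without WT control 3, WT FL 2 or WT FL 3. Calls over the whole table then numbered 0, 0 and 36 in place of 738.

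In Clec9agfp/gfp cDC1s FL raised *Rel* alone among the 10, or 1 of 10 where 2.01% of all genes were called higher and 5.46% in either direction by limma. The median log2 fold change was 0.32 (0.01 over all genes). *Rel* was also the only one of the 10 whose libraries did not overlap, against 10.6% of all genes. The count was 0 without any 1 of Clec9agfp/gfp control 1, 2 or 3 or Clec9agfp/gfp FL 1 or 3. Whether the responses of the genotypes differ was tested directly, and limma called 0 of the 10 and 0 of all 11255 genes for the interaction (0% of genes).

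**Figure D2:**
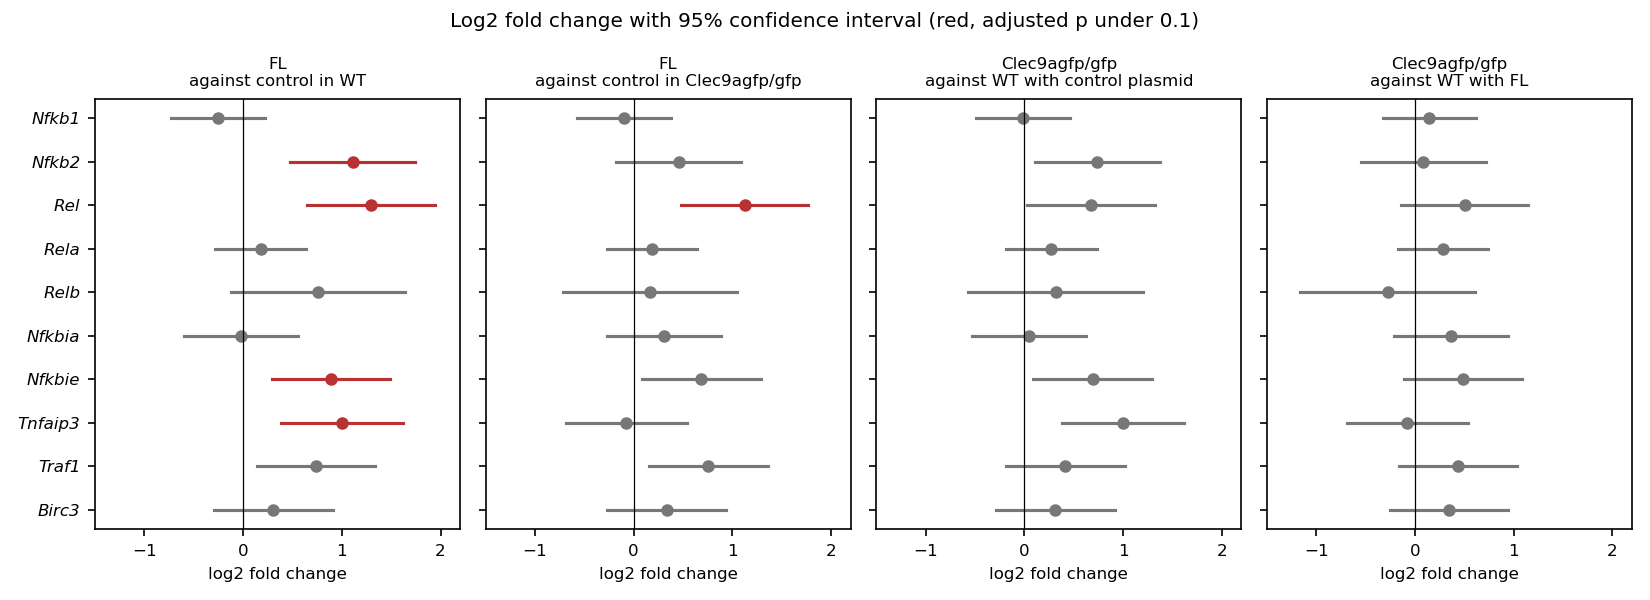
Log2 fold change of each gene with its 95% confidence interval from limma in the 4 comparisons that change 1 factor. Red marks an adjusted p under 0.1. The 4 red genes with FL in WT are *Nfkb2*, *Rel*, *Nfkbie* and *Tnfaip3*, *Rel* is red with FL in Clec9agfp/gfp cDC1s, and none is red between genotypes.

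The comparisons between genotypes called none of the 10. Between the control groups limma called 0 of 10, with 0.0267% of all genes called, while 4 of the 10 (*Nfkb2*, *Rel*, *Nfkbie* and *Tnfaip3*) had an unadjusted p under 0.05 with Clec9agfp/gfp higher, where 19.6% of all genes had an unadjusted p under 0.05 in either direction. Libraries did not overlap for *Rel*, *Nfkbie* and *Tnfaip3*, or 3 of 10, against 8.23% of all genes higher. Their log2 fold changes were 0.68 (95% CI 0.03 to 1.32), 0.69 (0.09 to 1.29) and 1.00 (0.39 to 1.61). Without WT control 2, *Nfkb2* (1.02, adjusted p = 0.0410 from limma), *Nfkbie* (0.81, adjusted p = 0.0960) and *Tnfaip3* (1.19, adjusted p = 0.0283) were called higher in Clec9agfp/gfp control, when 2335 of all genes were called in place of 3. With FL, limma called 0 of 10 between Clec9agfp/gfp and WT (0.0267% of all genes), and 0 of 10 had an unadjusted p under 0.05 (3.83% of all genes). The interval for *Rel* ran from −0.14 to 1.15 around a log2 fold change of 0.50, that for *Nfkbie* from −0.11 to 1.09 around 0.49 and that for *Traf1* from −0.16 to 1.04 around 0.44. Without Clec9agfp/gfp FL 3 the log2 fold changes between genotypes under FL were 0.10 for *Rel*, 0.16 for *Nfkbie* and 0.14 for *Traf1*. From gene set enrichment in these libraries, the study reported that a hallmark set of TNFα signaling via NF-κB changed with FL in both genotypes. It also reported that set as enriched in Clec9agfp/gfp over WT cDC1s under FL. Enrichment of a set over all ranked genes is another measure than a call of single genes, and it was not repeated here.

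Over both genotypes FL raised *Rel* by 1.21 (SE 0.22, adjusted p = 0.00734 from limma), *Nfkbie* by 0.79 (SE 0.20, adjusted p = 0.0238), *Nfkb2* by 0.78 (SE 0.21, adjusted p = 0.0294) and *Traf1* by 0.75. These were 4 of 10, where 9.6% of all genes were called higher and 17.5% in either direction. *Rel*, *Nfkbie*, *Nfkb2* and *Traf1* kept the call in 22 of 23 other settings, including each of the 12 fits without 1 library, where limma's adjusted p was at most 0.0840. With WT control 1, WT control 3 and Clec9agfp/gfp FL 3 left out together, a setting chosen after the data were seen, none of the 4 kept it. The log2 fold changes were then 0.85 for *Rel* (adjusted p = 0.112 from limma), 0.51 for *Nfkbie* (0.294), 0.32 for *Nfkb2* (0.382) and 0.46 for *Traf1* (0.269), with WT control represented by 1 library that was assumed to vary like the others.

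**Figure D3:**
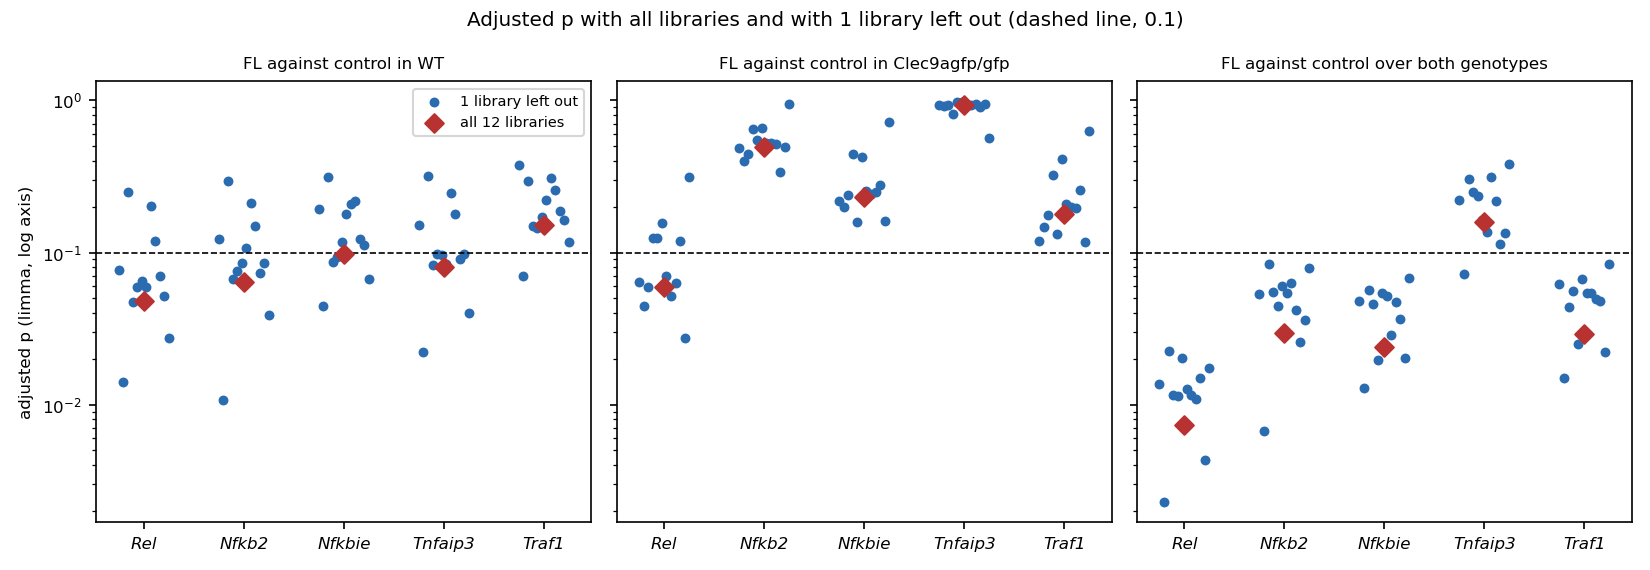
Adjusted p from limma, on a log axis, of 5 genes for FL against control in WT, in Clec9agfp/gfp and over both genotypes. Diamonds are the fit of all 12 libraries and points the fits with 1 library left out, and the dashed line marks 0.1. Points of *Rel*, *Nfkb2*, *Nfkbie* and *Traf1* stay under the line only over both genotypes, at up to 0.0840.

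Clec9agfp/gfp FL against WT control, which differ in both genotype and plasmid, had the greatest number of calls. It raised *Rel* by 1.80 (SE 0.31, adjusted p = 0.00778 from limma), *Nfkbie* by 1.38 (SE 0.28, adjusted p = 0.0116), *Nfkb2* by 1.20 (SE 0.30, adjusted p = 0.0206), *Traf1* by 1.17 (SE 0.28, adjusted p = 0.0188) and *Tnfaip3* by 0.92 (SE 0.29, adjusted p = 0.0480). That was 5 of 10, where 12.8% of all genes were called higher and 22.7% in either direction, and 6 of 10 did not overlap, against 16.2% of genes. The contributions of genotype and plasmid cannot be told apart in it. *Rel* and *Nfkbie* were called in 23 of 24 other settings, the exception being the fit without the 3 libraries named above (log2 fold changes 1.07 and 0.82, adjusted p = 0.706 and 0.743 from limma, where 5 genes of the whole table were called in place of 2554). Without Clec9agfp/gfp FL 3 only these 2 were called, and *Nfkb2* (adjusted p = 0.123 from limma), *Traf1* (0.114) and *Tnfaip3* (0.234) were not. *Nfkb2* was also lost without WT control 3 (adjusted p = 0.119 from limma), and *Tnfaip3* without WT control 1 (0.111) or WT control 3 (0.190) and with sample weights (0.72, adjusted p = 0.117). This comparison shares its WT control libraries with FL against control in WT and its FL libraries with FL against control in Clec9agfp/gfp, so its calls are not a separate observation.

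The 10 genes moved largely together from library to library. Each was standardized over the 12 libraries, and the mean of the 10 standardized values was highest in Clec9agfp/gfp FL 3 (1.59 SD) and second in Clec9agfp/gfp control 2 (0.70), a control library. The lowest were WT control 1 (−0.99) and WT control 3 (−0.94). Over the 45 pairs of genes the median correlation of the log2 levels was 0.65, and it was 0.50 without Clec9agfp/gfp FL 3 and 0.59 within groups (12 libraries, which all pairs share). All 9 negative correlations involved *Nfkb1*, and among pairs without *Nfkb1* the lowest was 0.23. Without Clec9agfp/gfp FL 3, 11 pairs were negative, 8 with *Nfkb1* and 3 of *Nfkbia* with *Rel*, *Rela* or *Tnfaip3* (−0.076 to −0.093).

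**Figure D4:**
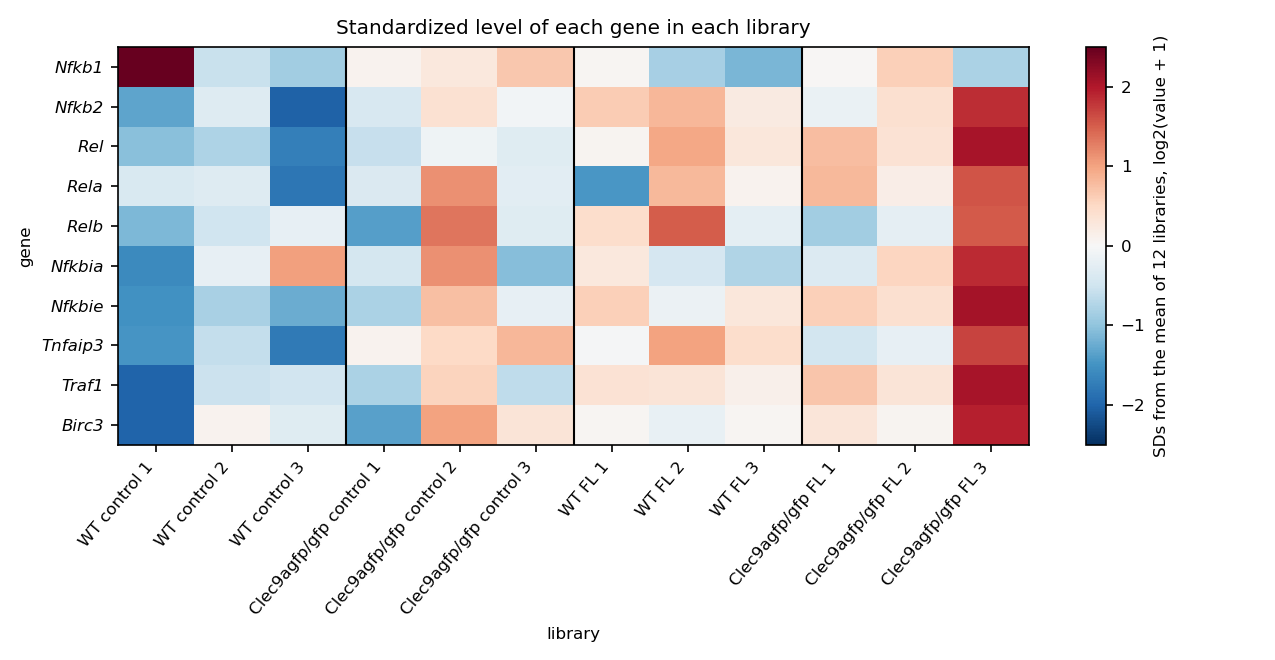
Level of each gene in each library as SDs from its mean over the 12 libraries on the log2(value + 1) scale, with lines between groups. Clec9agfp/gfp FL 3 is high for every gene but *Nfkb1*, and WT control 1 and 3 are low for most.

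Outside the 10, the genes whose level most resembled the mean standardized value were *Pde4b*, a cAMP phosphodiesterase (Pearson's r = 0.96 over 12 libraries), *Tubb2b*, a beta tubulin (0.96), *Spsb1* (0.95), *Oasl1* (0.95), *Arhgap22* (0.94), *Nuak2*, an AMPK-related kinase (0.94), *Ndrg1* (0.94) and *Ggta1*, which makes the alpha-gal epitope (0.94). They were picked for this likeness among all tested genes, so an order of group means like that of the 10 follows from the choice. In *Spsb1* the group means ran from 13.6 CPM in WT control through 22.2 in Clec9agfp/gfp control and 27.6 in WT FL to 45.0 in Clec9agfp/gfp FL, and in *Pde4b* from 143 through 196 and 224 to 313. Neither gene was called in a comparison of 1 factor, where the lowest adjusted p from limma was 0.122 for *Spsb1* and 0.163 for *Pde4b*.

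Levels were compared between genes only per kb of annotated exon. The length merged the exons of all annotated transcripts of a gene, for example 12.1 kb for *Nfkb1* and 3.07 kb for *Rela*. The level of a gene whose expressed transcripts are shorter than that is understated. The order between genes therefore depends on these lengths, and other lengths were not tried. Over the 12 libraries *Nfkbia* had the highest level, at 156 CPM per kb, followed by *Traf1* (51.2), *Birc3* (39.4), *Nfkb2* (32.8), *Nfkbie* (31.7), *Rela* (27.1), *Relb* (26.8), *Rel* (21.6), *Tnfaip3* (12.7) and *Nfkb1* (7.40). The order of the subunits depended on the group. In WT control *Rela* led with 22.9 ± 3.54 CPM per kb (SD, n = 3), near *Relb* (18.8 ± 3.79) and *Nfkb2* (18.5 ± 6.97), whose ranges of mean ± SD overlap, while *Rel* stood at 9.82 ± 2.52. In Clec9agfp/gfp FL *Nfkb2* (43.8 ± 20.8) and *Rel* (36.8 ± 19.6) had means above *Rela* (31.6 ± 4.27) and *Relb* (29.0 ± 17.1), with spreads that overlap throughout. Without Clec9agfp/gfp FL 3 the means were 32.0 for *Nfkb2*, 29.4 for *Rela*, 25.6 for *Rel* and 19.2 for *Relb*, so *Rel* was then below *Rela*.

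The other parts of the pathway were described by counts and medians. Over both genotypes FL raised 9.6% and lowered 7.85% of all genes, with a median log2 fold change of −0.0019. Among 11 measured kinases of and above the IKK complex, it raised 3 and lowered 1 (median 0.24). *Map3k14*, which encodes NIK, the kinase of the noncanonical pathway, rose by 1.96 in WT (SE 0.39, adjusted p = 0.0388 from limma) and by 1.39 in Clec9agfp/gfp cDC1s (SE 0.39, adjusted p = 0.0657). *Ikbkb*, the catalytic subunit IKKβ, rose by 0.75 in WT cDC1s (adjusted p = 0.0787 from limma) and changed by 0.52 in Clec9agfp/gfp cDC1s, which was not called. *Ripk1*, a kinase of the TNF receptor complex, fell by 1.60 in Clec9agfp/gfp cDC1s (adjusted p = 0.0279 from limma), while its change in WT was −0.10 and the interaction was not called (adjusted p = 0.455). Of the 4 other IκB proteins, *Nfkbib* (IκBβ) rose in Clec9agfp/gfp cDC1s by 1.02 (adjusted p = 0.0374 from limma). In WT cDC1s *Nfkbib* changed by 0.27, which was not called, and neither was its interaction.

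FL over both genotypes raised 4 and lowered 1 of 17 adaptors (median 0.15) and raised 5 of 15 ubiquitin ligases and deubiquitinases (median 0.22), where 9.6% of all genes rose and 7.85% fell. In WT cDC1s the adaptor *Traf6* (1.17, adjusted p = 0.0586 from limma) and the ligases *Itch* (1.06, adjusted p = 0.0516), a partner of A20, and *Rnf31* (0.90, adjusted p = 0.0621), which encodes HOIP of the linear ubiquitin ligase, rose. In Clec9agfp/gfp cDC1s *Traf6* changed by 0.65, *Itch* by 0.46 and *Rnf31* by 0.40, none of them called. *Birc2*, which encodes cIAP1 and neighbours *Birc3* in the genome, rose in Clec9agfp/gfp cDC1s by 0.81 (adjusted p = 0.0932 from limma). In WT cDC1s *Birc2* changed by a similar 0.72, which was not called (adjusted p = 0.116 from limma). Of 13 receptors 3 rose over both genotypes (median 0.29) and none fell, and those called within a genotype were *Tnfrsf1b* (TNFR2), by 1.37 in WT and 1.22 in Clec9agfp/gfp cDC1s (adjusted p = 0.0640 and 0.0886 from limma), and, in Clec9agfp/gfp cDC1s, *Tnfrsf4* (OX40, by 2.21, adjusted p = 0.0225) and *Tnfrsf9* (4-1BB, by 1.52, adjusted p = 0.0147). In WT cDC1s *Tnfrsf4* changed by 0.94 and *Tnfrsf9* by 0.13, neither of them called. No gene named in this paragraph was called for the interaction.

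Known NF-κB targets outside the feedback loops had a median log2 fold change of 0.41 with FL in WT and 0.55 in Clec9agfp/gfp cDC1s, and 5 and 9 of 36 rose, with none lower, where 5.37% and 2.01% of all genes rose and the medians of all genes were −0.01 and 0.01. The list held *Cd80*, *Cd83*, *Il12b*, *Il15*, *Ccr7* and *Ccl5*. The study had already placed these, and *Cd70*, in a cluster induced by FL and further raised in Clec9agfp/gfp cDC1s under FL in these data. The counts and medians of the list are therefore in part not a separate observation. *Icosl*, a costimulatory ligand, rose in WT cDC1s (1.12, adjusted p = 0.0388 from limma) and changed by 0.18 in Clec9agfp/gfp cDC1s, which was not called. In Clec9agfp/gfp cDC1s the chemokine *Ccl5* (2.13, adjusted p = 0.0143 from limma), *Gadd45b* (1.70, adjusted p = 0.0163) and the cytokine *Il15* (1.13, adjusted p = 0.0225) rose, as did the ligand *Cd70* (2.21, adjusted p = 0.0143), 1 of 8 measured ligands (2.01% of all genes). In WT cDC1s *Ccl5* changed by 0.80, *Gadd45b* by 0.66, *Il15* by 0.10 and *Cd70* by 0.57, none of them called. The interaction was called for none of these genes and not for *Icosl*, so this test did not show responses particular to a genotype. The study had other evidence. By quantitative PCR it found *Ccl5* higher in Clec9agfp/gfp FL cDC1s than in the other groups. By flow cytometry it found more IL12p40 and CCR7 in cDC1s of FL-treated mice given a DNGR-1-blocking antibody. Of 19 immediate-early genes, which respond to many stimuli and to tissue handling, 3 fell and none rose with FL in Clec9agfp/gfp cDC1s, where 3.45% of all genes fell: *Egr1* fell by 2.10, *Jun* fell by 2.22 and *Dusp1* fell by 2.10 (adjusted p = 0.0168, 0.0225 and 0.0854 from limma). In WT cDC1s *Egr1* changed by −0.37, *Jun* by −0.69 and *Dusp1* by −0.94, with no call there or for the interaction.

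**Figure D5:**
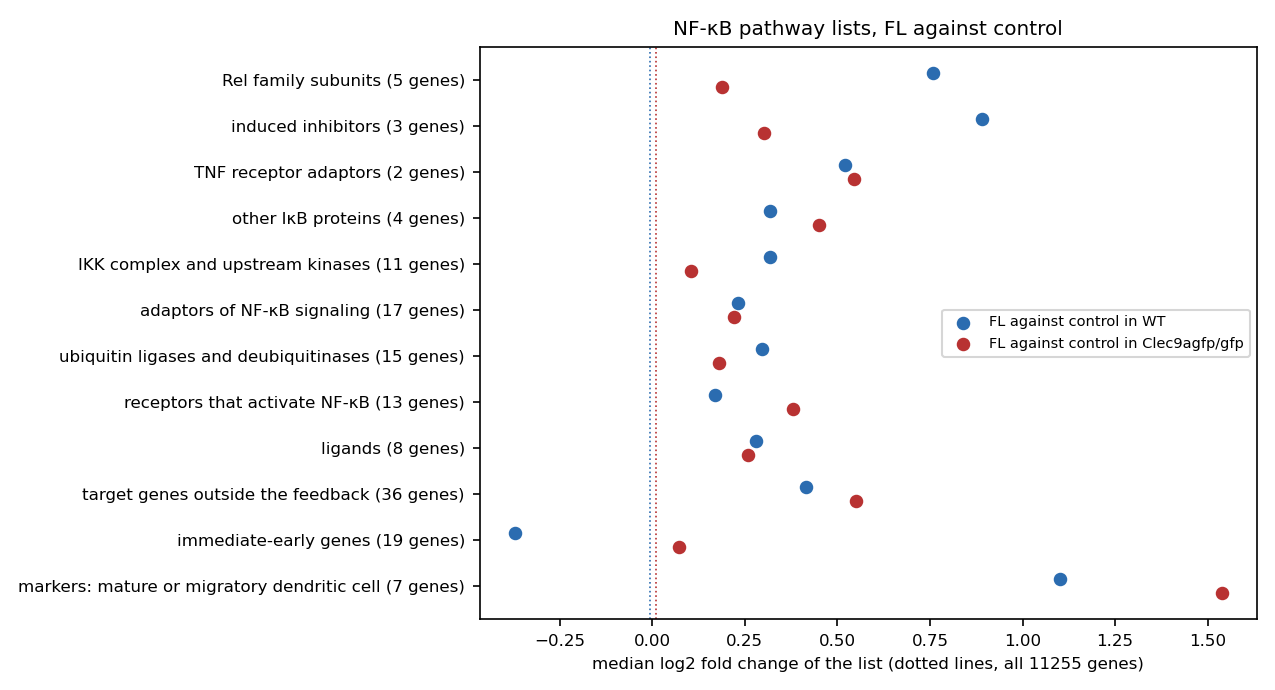
Median log2 fold change with FL in WT (blue) and Clec9agfp/gfp (red) cDC1s of the groups of NF-κB genes and of markers of mature dendritic cells, with the number of genes tested in each. Dotted lines are the medians of all 11255 genes, −0.01 and 0.01, and the markers of mature dendritic cells have the largest medians, 1.10 and 1.54. These markers share *Ccr7*, *Fscn1*, *Ccl22* and *Socs2* with the targets.

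Markers of mature or migratory dendritic cells also rose with FL. FL over both genotypes raised 7 of these 7 markers, with a median of 1.32, where 9.6% of all genes rose and their median was −0.0019. FL raised 4 of the 7 in WT cDC1s (5.37% of all genes) and 5 in Clec9agfp/gfp cDC1s (2.01%). *Ccr7*, *Fscn1*, *Ccl22* and *Socs2* were also in the list of NF-κB targets, so these lists are not separate observations. The summed level of the 7 markers was 630 to 1596 CPM in WT control, 990 to 1879 in Clec9agfp/gfp control, 1809 to 3027 in WT FL and 2614 to 5864 in Clec9agfp/gfp FL. The lowest value of any of the 7 in a library was 17.3 CPM, of *Cd200*. The 10 genes summed to 970 to 1335, 1232 to 1996, 1592 to 1879 and 1734 to 3204 CPM in the same groups. The highest sums of both, 5864 and 3204 CPM, were those of Clec9agfp/gfp FL 3. Clec9agfp/gfp FL 1 and 2 had 2646 and 2614 CPM of the markers and 1759 and 1734 of the 10 genes, within the ranges of WT FL. WT control 1 was lowest in both the marker sum (630 CPM) and the mean standardized value of the 10 genes (−0.99). WT control 3 had the highest marker sum of its group (1596 CPM), but its mean standardized value (−0.94) ranked 11 of 12. A correlation between the markers and the 10 genes was not computed. The part of a changed share of mature cells in the values of the 10 genes was not tested.

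Markers of other cell types were read beside them. Macrophage or monocyte markers (13 of 14 measured) summed to 764 to 1361 CPM in WT control, 584 to 688 in Clec9agfp/gfp control, 705 to 998 in WT FL and 837 to 1497 in Clec9agfp/gfp FL, and 4 of 13 rose with FL in Clec9agfp/gfp cDC1s (2.01% of all genes) and 0 in WT cDC1s (5.37%), with 0 of 13 called for the interaction. *Lyz2*, at 301 to 1090 CPM, made up most of these sums, while *Adgre1*, which encodes F4/80, was at 3.19 to 11.6. The highest sum, 1497 CPM, was that of Clec9agfp/gfp FL 3. Melanoma markers (6 of 7 measured) summed to 16.1 to 112 CPM, and *Gzmb*, the only one of 8 T or NK cell markers measured, was at 0.0346 to 3.61 and rose by 0.96 with FL over both genotypes (adjusted p = 0.0254 from limma) and by 1.72 in Clec9agfp/gfp FL against WT control (adjusted p = 0.0115). Fibroblast or endothelium markers (5 of 8 measured) summed to 39.2 to 51.0 CPM in WT control, 22.3 to 57.6 in Clec9agfp/gfp control, 42.5 to 55.6 in WT FL and 48.0 to 104 in Clec9agfp/gfp FL, highest in FL 3. In Clec9agfp/gfp FL against WT control 2 of these 5 were called higher, *Col3a1* and *Pecam1*, where 12.8% of all genes were (median 1.23 against 0.0074 over all genes), and 0 of 5 were called over both genotypes. The 6 markers of type 2 conventional dendritic cells (cDC2s) summed to 43.4 to 73.4 CPM in WT control. In Clec9agfp/gfp FL they summed to 25.9 to 49.7 CPM. Over both genotypes FL raised 2 and lowered 1 of them, where 9.6% of all genes rose and 7.85% fell. In Clec9agfp/gfp FL against WT control 2 were higher and 2 lower, where 22.7% of all genes were called. Plasmacytoid cell markers (3 of 5 measured) were called in no comparison. The part of RNA from cDC2s, macrophages, T or NK cells or stroma in the comparisons was not tested.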

How the data were processed

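RNA of cDC1s was sequenced in 12 libraries, and groups were read from the sample titles. The deposited values were signal values, TMM-scaled counts per M (CPM), in which the authors had divided whole counts plus 0.5 by the effective library size (the values give whole counts within a tolerance of 0.02). Per the submitters' processing notes the authors used CASAVA 1.8.2, cutadapt 1.3 and RSEM 1.2.3. Genes with low values had been filtered out of the table by a rule not given in the sources used here. Library preparation kept no record of strand, so reads of antisense partners cannot be told apart.

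Values were taken to log2(value + 1), on which fold changes of low genes are understated, and the 11255 genes with a mean of at least 1 entered a linear model (limma 3.58.1, R 4.3.3) using 1 mean per group and a trended prior over all libraries. Benjamini-Hochberg adjustment was made over all genes within each of 7 comparisons, and the threshold for a call was an adjusted p of 0.1, which the study also used. No count test was run. The procedure was tested on simulated counts, drawn with the same relative spread beyond counting noise for every gene. The simulation had no differences between libraries shared by many genes. It therefore does not show how the procedure behaves where calls depend on single libraries, as they do here.

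All 10 genes are named, with up to 4 genes per other pathway list that were called in a comparison of 1 factor, by smallest p, and the 8 genes most like the mean of the 10. A gene that this rule selects is not reported here. These genes, lists and rules were chosen with earlier results of these data known. Positions and exon lengths came from GENCODE M21 (11251 of 11264 identifiers found), promoters from RefSeq. Other settings tried were pseudocounts, filters on low genes, library scaling, limma-voom, sample weights, a replicate block, a fit of the compared groups only, and each library left out.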

Additional observations from a re-analysis of the deposited data

How the results depend on the processing

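Of 1590 values of the 10 genes under other settings, 1481 kept their direction and their side of the threshold, 41 lost and 10 gained a call, and 58 changed sign, none of them called. For FL in WT the number of the 10 genes called was 4, and 2 with sample weights, 1 with only the groups compared and 0 to 5 with 1 library left out. The range with 1 library left out was 0 to 1 for FL in Clec9agfp/gfp, 0 to 3 for Clec9agfp/gfp against WT control and 2 to 6 for Clec9agfp/gfp FL against WT control. With WT control 1, WT control 3 and Clec9agfp/gfp FL 3 left out together (chosen after seeing the data) it was 0 in every comparison, and the cause was not tested. As for depth, the lowest count of any of the 10 genes was 238.

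Signs changed as follows, on the log2 scale. Column totals gave 0.11 for *Nfkbia* with FL in WT, 0.085 for *Nfkb1* between control groups, and −0.11, −0.11 and −0.095 for the interaction of *Rela*, *Traf1* and *Birc3*; upper quartile scaling gave −0.014 for *Nfkbia* between control groups. Limma-voom gave −0.014 and −0.0044 for the interaction of *Rela* and *Traf1*. Sample weights gave −0.12, −0.25 and −0.24 for that of *Rela*, *Traf1* and *Birc3*, −0.34 for *Relb* with FL in Clec9agfp/gfp and −0.14 for *Nfkb2* between genotypes with FL. Without the 3 libraries, *Birc3* was −0.040 between control groups and −0.051 with FL in WT, *Nfkb1* 0.23 between control groups and 0.22 for Clec9agfp/gfp FL against WT control, *Relb* −0.037 in the latter and −0.28 with FL in Clec9agfp/gfp, *Nfkb2* −0.28 between genotypes with FL, and the interaction of *Traf1* −0.0091.

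With 1 library left out, the interaction ran from −0.26 to 0.30 for *Birc3*, −0.12 to 0.31 for *Nfkb1*, −0.53 to 0.055 for *Nfkbie*, −0.58 to 0.11 for *Rel*, −0.16 to 0.15 for *Rela* and −0.28 to 0.30 for *Traf1*. *Nfkb1* ran from −0.41 to 0.019 with FL in WT, −0.17 to 0.27 between control groups and −0.27 to 0.17 for Clec9agfp/gfp FL against WT control. *Nfkbia* ran from −0.27 to 0.22 with FL in WT and −0.20 to 0.29 between control groups. *Relb* ran from −0.28 to 0.63 with FL in Clec9agfp/gfp, −0.15 to 0.72 between control groups and −0.72 to 0.051 between genotypes with FL. *Nfkb2* (−0.28 to 0.35) and *Tnfaip3* (−0.46 to 0.15) changed sign between genotypes with FL, and *Tnfaip3* with FL in Clec9agfp/gfp (−0.46 to 0.15).

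Over all genes, leaving out 1 library moved the calls from 738 to between 0 and 2535 for FL in WT, from 614 to 106 to 812 for FL in Clec9agfp/gfp, from 3 to up to 2335 between control groups, from 2554 to 492 to 3892 for Clec9agfp/gfp FL against WT control, from 1965 to 995 to 2824 over both genotypes and from 0 to up to 22 for the interaction. Other alternatives gave 98 to 1001 for FL in WT, 388 to 1520 for FL in Clec9agfp/gfp and 1824 to 2558 for Clec9agfp/gfp FL against WT control. Column totals shifted the median of all genes to 0.11 for FL in WT, 0.14 between control groups and −0.16 for the interaction, and moved the share of calls that were higher from 81.8% to 96.3% for FL in WT, 56.6% to 69.8% for Clec9agfp/gfp FL against WT control and 55% to 67.4% over both genotypes. Upper quartile scaling moved it from 36.8% to 48% for FL in Clec9agfp/gfp.

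The labels do not say that a replicate number marks a shared experiment, and the libraries were treated as unpaired. Same-numbered libraries correlated at −0.22 to 0.34 over 18 pairs, 5 of them over 0.1, and 3 of 12 libraries correlated best with their own number. The 5 pairs included all 3 of Clec9agfp/gfp control with WT FL (0.121 to 0.339). These groups were not compared with each other, but both enter the FL effect over both genotypes and the interaction. With the replicate number as a block, 3 of the 10 genes were called for FL in WT, 1 for FL in Clec9agfp/gfp, 4 over both genotypes, 6 for Clec9agfp/gfp FL against WT control (*Birc3* gained, adjusted p = 0.0893 from limma) and 0 in the other comparisons. In WT the block ended the call of *Nfkbie* (adjusted p = 0.103). Over all genes, the settings other than leaving libraries out, the block among them, gave 98 to 1001 calls for FL in WT. They gave 388 to 1520 for FL in Clec9agfp/gfp, 1821 to 2246 over both genotypes and 1824 to 2558 for Clec9agfp/gfp FL against WT control.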
